A study of Mus musculus with 12 samples.

Results

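Adipocyte differentiation begins with a wave of transcription factors that switch on before the adipocyte genes do. The data described here are the RNA levels of 9 of these early factors, Cebpb, Cebpd, Klf4, Klf5, Egr2, Stat5a, Stat5b, Creb1 and Fosl2, in 3T3-L1 cells with and without knockdown of PRMT1. The 9 genes were taken by name from a table of 39423 genes, and each name matched 1 row. All 9 passed the filter on low counts in every comparison, although Egr2 did so with few counts.

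3T3-L1 cells are preadipocytes of the mouse that become adipocytes once treated with DMI, which combines insulin with dexamethasone, a glucocorticoid, and 3-isobutyl-1-methylxanthine, which raises cyclic AMP. Cells were transfected with a nontargeting siRNA (siCtrl) or an siRNA against PRMT1 (siPRMT1), a protein arginine methyltransferase, and all of them were then induced with DMI. RNA was sequenced after 24 h (day 1) and 72 h (day 3), with 3 libraries in each of 4 conditions, siCtrl day 1, siPRMT1 day 1, siCtrl day 3 and siPRMT1 day 3, which makes 12. The knockdown was a transient transfection, and which of the PRMT1 siRNAs was used for sequencing is not stated. The study's methods speak of independent experiments in general, and the labels do not say that the sequenced replicates were separate cultures, so the p-values measure the spread between libraries, which may be technical.

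In the textbook account, the hormones of DMI act on these genes within hours. Dexamethasone raises C/EBPδ, and cyclic AMP signalling through CREB raises C/EBPβ, which KLF4 and EGR2 also activate. C/EBPβ and C/EBPδ then switch on Klf5, Pparg and Cebpa, while STAT5 proteins, activated by growth hormone and JAK2, add to Pparg. Fosl2 encodes Fra-2, a subunit of the AP-1 dimer that binds open chromatin beside C/EBPβ. CREB, STAT5 and C/EBPβ are also set by phosphorylation, which RNA levels do not measure, and the peak of the early genes lies before day 1.

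Library totals ran from 15116462 to 42357137 counts. The target, Prmt1, lay lower in every siPRMT1 library than in every siCtrl library of the same day, with 38.6 to 43.8 against 82.9 to 91.3 FPKM at day 1 and 62.0 to 71.7 against 111 to 140 FPKM at day 3. FPKM is the count scaled by gene length and library total, and it is used below for levels, since it can be compared between genes. Summed FPKM of 5 adipocyte markers (Fabp4, Plin1, Adipoq, Lpl and Cidec) went from between 100 and 111 in siCtrl day 1 libraries to between 2509 and 2723 in siCtrl day 3 libraries, and from between 81.6 and 94.5 to between 1957 and 2145 in siPRMT1 cells. Summed markers of macrophages lay between 1.76 and 2.86 FPKM over all libraries, and those of endothelium between 0.12 and 0.88 FPKM. Epithelial markers went from between 0.05 and 0.21 FPKM at day 1 to between 4.6 and 6.57 FPKM at day 3, with Krt14 called higher, and muscle markers from between 0.68 and 1.14 to between 3.54 and 6.53 FPKM, with Des called higher. Des was also called lower with the knockdown at day 3 (log2 difference -0.77). Their part in the differences of the early factors was not tested. In RNA from whole cultures, fewer cells expressing a gene and less RNA per cell cannot be told apart.

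A control library, siCtrl day 1 replicate 3, stood apart from the other two of its group. The median absolute deviation of its genes from the group mean was 0.15 on the log2 scale, against 0.10 and 0.07 in replicates 1 and 2, and its deviations rose with the GC content of genes (r = 0.65 across 12468 genes of that library, a description), while those of replicates 1 and 2 fell with it (r = -0.58 and -0.41). The 9 factors span a wide range of GC content. Cebpb transcripts hold 67.2% GC, more than 99.9% of genes with a mean of at least 10 counts, and Creb1 transcripts hold 39.6%, more than only 5.01%. Relative to its group mean, replicate 3 had Cebpb higher by 0.45, Cebpd by 0.37 and Stat5a by 0.26 on the log2 scale, and Creb1 at -0.59. Offsets that correct every library for GC content and gene length were also used. Where results of the 9 factors that compare with siCtrl day 1 moved with these offsets or without this library, those values are given below. They are not given for other genes.

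**Figure D1:**
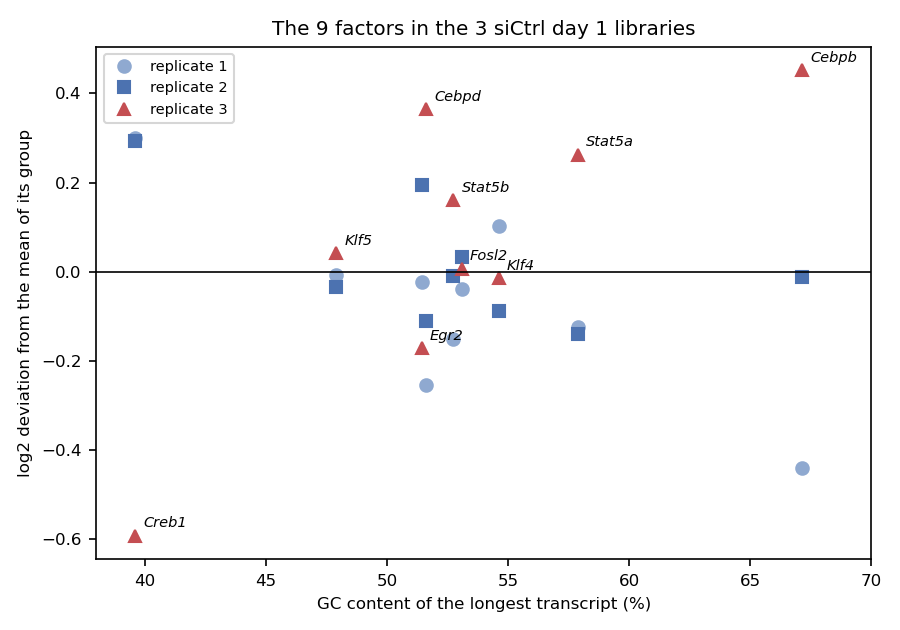
Deviation of each of the 9 factors from its group mean (log2 CPM, vertical axis) against the GC content of its longest transcript (percent, horizontal axis) in the 3 siCtrl day 1 libraries, with the gene named at replicate 3. Creb1, at 39.6% GC, and Cebpb, at 67.2% GC, lie at opposite ends, at -0.59 and 0.45 in replicate 3.

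Promoter sequence was taken from RefSeq for the early genes that fell most from day 1 to day 3 and have an entry, Cebpb, Klf4 and Fosl2, so that the CREB half-site can be seen beside their values. In the table used, 7 of the 9 factors have entries, and Cebpd and Klf5 do not. Each line holds the 250 bases before the transcription start on GRCm38.p6, 5′ to 3′ on the gene's strand, at chr2:167688665-167688914 (plus), chr4:55532476-55532725 (minus) and chr5:32136222-32136471 (plus). Capitals mark TGACG, or CGTCA where it lies on the other strand.
Cebpb: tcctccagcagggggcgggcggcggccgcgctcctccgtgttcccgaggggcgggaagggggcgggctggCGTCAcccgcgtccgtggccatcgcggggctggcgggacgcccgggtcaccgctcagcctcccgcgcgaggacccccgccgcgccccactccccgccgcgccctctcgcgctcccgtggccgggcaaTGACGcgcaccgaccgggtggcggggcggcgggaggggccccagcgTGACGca
Klf4: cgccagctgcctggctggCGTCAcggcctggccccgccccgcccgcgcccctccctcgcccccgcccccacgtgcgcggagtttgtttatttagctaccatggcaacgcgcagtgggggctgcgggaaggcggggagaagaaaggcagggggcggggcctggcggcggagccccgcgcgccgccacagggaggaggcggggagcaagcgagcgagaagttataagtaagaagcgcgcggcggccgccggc
Fosl2: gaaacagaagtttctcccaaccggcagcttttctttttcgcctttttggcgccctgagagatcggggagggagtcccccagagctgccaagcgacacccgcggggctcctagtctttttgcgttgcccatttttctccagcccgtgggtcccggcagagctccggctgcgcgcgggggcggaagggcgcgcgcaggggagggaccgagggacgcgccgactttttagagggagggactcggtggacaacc
TGACG is the core of the site that CREB binds, and on either strand it occurs in 17.8% of all 32851 RefSeq promoters cut to the same length. Cebpb holds it at 3 places, at positions -180 to -176, -53 to -49 and -7 to -3 from the start site, and Klf4 at 1 place, at -232 to -228. No match stands in the Fosl2 window, and the full palindrome TGACGTCA, which contains the half-site and occurs in 1.55% of promoters, is in none of the 3 windows. GC content is 81.6% in the Cebpb, 74.0% in the Klf4 and 64.4% in the Fosl2 window. Egr2, which was not called between the days, also holds TGACG in some of its windows, in 1 of them at -111 to -107 and -55 to -51. The windows of Creb1, Stat5a and Stat5b hold no match. A match is a description of these letters and not a bound site, and a link to the fall between the days was not tested.

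The first question was what PRMT1 knockdown did to the early factors. At day 1, Klf4 was higher and Stat5a lower in siPRMT1 than in siCtrl cells, and the other 7 were not called. At day 3 no factor passed both thresholds, and Stat5a and Fosl2 were lower by less than the fold threshold. Calls needed an adjusted p (Benjamini-Hochberg, from edgeR's quasi-likelihood test on 3 against 3 libraries) below 0.05 together with a log2 difference beyond 0.5 in either direction. Of the 9 factors, 1 was called higher at day 1, where 1.95% of the 13689 genes tested were, and 1 was called lower, where 1.61% were. With the adjusted p alone these counts were 1 and 1, where 3.22% and 4.38% of genes passed. The day 3 calls took in 2.84% of the 14039 genes tested as higher and 3.80% as lower, and of the factors 0 and 0 with edgeR and also with DESeq2. Both factors that had an unadjusted p under 0.05 at day 3, Stat5a and Fosl2, passed the adjusted p when the fold threshold was dropped, where 8.94% of genes were lower and 7.54% higher, against 2 and 0 of the factors. The median log2 difference of the 9 was 0.06 at day 1 and -0.14 at day 3, against 0.01 and 0.01 over all genes tested.

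**Figure D2:**
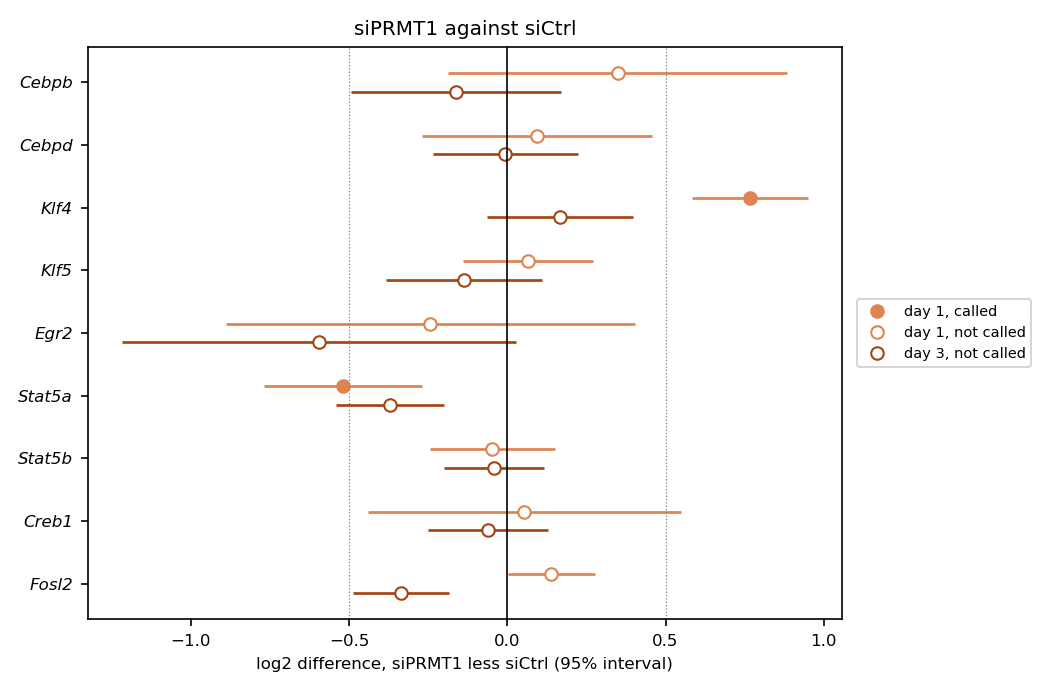
Log2 difference of siPRMT1 to siCtrl cells (horizontal axis) for each factor at day 1 (light) and day 3 (dark), with 95% intervals from edgeR. Filled points were called, and dotted lines mark the fold threshold of 0.5. Klf4 at 0.77 and Stat5a at -0.52, both at day 1, are the only filled points.

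Klf4 (chromosome 4, 55527137 to 55532475, minus strand, GRCm38), a Krüppel-like factor best known from pluripotent cells, is an early activator of Cebpb. In siCtrl cells at day 1 it stood at 9.90, 8.68 and 8.99 FPKM in replicates 1 to 3. In siPRMT1 cells at day 1 it stood at 15.8, 16.3 and 16.5 FPKM. These libraries held between 566 and 1336 counts of Klf4. Every siPRMT1 library lay above every siCtrl library, and the groups were far apart relative to their spread. edgeR gave a log2 difference of 0.77 (standard error 0.0799, adjusted p = 0.00302), and the mean FPKM was 1.76-fold higher. Klf4 was called under each of the 17 alternatives run at day 1, at log2 differences from 0.73 to 0.83.

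At day 3, Klf4 had fallen to 5.94, 5.69 and 5.57 FPKM in siCtrl cells and 5.27, 7.06 and 7.01 FPKM in siPRMT1 cells. Replicate 1 of siPRMT1 lay below all control libraries and the other two above, so the groups overlapped. The log2 difference was 0.17 (95% interval -0.06 to 0.40, edgeR's adjusted p = 0.316), and 0.28 without siPRMT1 day 3 replicate 1 (adjusted p = 0.0476). The effect at day 3 was also tested against that at day 1. The interaction of siRNA and day was -0.58 on the log2 scale (standard error 0.143, edgeR's adjusted p = 0.0164), where a negative value means that siPRMT1 cells lay relatively lower at day 3 than at day 1. For the interaction, calls rest on the adjusted p alone, with no fold threshold, so their shares are not comparable with those of the knockdown calls. Of all 14612 genes tested for it, 4.63% were called lower and 7.69% higher, and of the 9 factors 2 and 0, by edgeR as by DESeq2, with 0 higher at an unadjusted p under 0.05.

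Klf5 (chromosome 14, 99298691 to 99313412, plus strand) acts after C/EBPβ and C/EBPδ and activates Pparg. Its levels at day 1 were 21.5, 21.2 and 21.9 FPKM in siCtrl cells and 22.5, 21.3 and 26.2 FPKM in siPRMT1 cells. At day 3 they were 11.4, 11.9 and 9.96 FPKM in siCtrl cells and 8.24, 10.9 and 11.1 FPKM in siPRMT1 cells. The groups overlapped at both days. edgeR gave a log2 difference of 0.06 at day 1 (95% interval -0.14 to 0.27) and -0.14 at day 3 (-0.38 to 0.11), with adjusted p of 0.718 and 0.446. Within a library, the ratio of Klf4 to Klf5 FPKM came to 0.427 ± 0.0290 for siCtrl and 0.700 ± 0.0691 for siPRMT1 at day 1 (SD, n = 3), and to 0.519 ± 0.0414 and 0.640 ± 0.0058 at day 3. At each day the ratios of siPRMT1 libraries lay above those of all siCtrl libraries. The ratios were not tested, and neither gene was called for the knockdown at day 3.

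Of the other Krüppel-like factors, 9 were listed and 8 tested at day 1, where 0 were called, with a median log2 difference of 0.10. At day 3, 1 of 9 was called, Klf15, an activator of adipocyte genes such as Glut4, with a log2 difference of -1.27 (edgeR's adjusted p = 4.23e-06). Klf15 was at 2.81 to 3.02 FPKM in siCtrl and 1.1 to 1.39 FPKM in siPRMT1 libraries at day 3, and at no more than 0.08 FPKM in any day 1 library.

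Stat5a (chromosome 11, 100859351 to 100885169, plus strand) and Stat5b (100780731 to 100859004, minus strand) encode the STAT5 proteins and lie head to head, 346 bases apart. Their coding sequences were 90.8% identical over 2291 aligned bases, and the longest run without a mismatch was 324 bases. Of all 50-base windows of the Stat5a coding sequence, 26.0% occur in Stat5b. How reads that fit both genes were counted is not stated, so the split of counts between them is uncertain.

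Stat5a stood at 16.2, 16.02 and 20.8 FPKM in siCtrl and 12.6, 11.9 and 13.7 FPKM in siPRMT1 cells at day 1. At day 3 it stood at 26.0, 27.7 and 24.5 FPKM in siCtrl and 18.2, 20.6 and 21.9 FPKM in siPRMT1 cells. On each day the siPRMT1 libraries all lay lower than the siCtrl libraries, and replicate 3 was the high control at day 1. The log2 difference was -0.52 at day 1 (standard error 0.110, edgeR's adjusted p = 0.0275) and -0.37 at day 3 (standard error 0.0803, adjusted p = 0.00526), the latter under the fold threshold. The mean FPKM changed by -27.9% at day 1 and by -22.4% at day 3.

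The direction of Stat5a at day 1 held under all 17 alternatives, at -0.58 to -0.40, but its call held under 9. The call was lost without siCtrl replicate 2 (adjusted p = 0.0679), and without siPRMT1 replicate 1 (0.102), replicate 2 (0.0970) or replicate 3 (0.0956). Without siCtrl replicate 3 the difference was -0.40 with an adjusted p of 0.00081 from edgeR, past the adjusted p and under the fold threshold. With the GC and length offsets it was -0.58 (adjusted p = 0.000296), and with limma on log2(FPKM + 1) it was -0.43 and not called (adjusted p = 0.0620).

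Stat5b was 7.71, 8.51 and 9.42 FPKM in siCtrl and 8.95, 8.23 and 8.45 FPKM in siPRMT1 cells at day 1, and 9.74, 9.77 and 10.5 FPKM against 8.99, 9.88 and 10.4 FPKM at day 3. The groups overlapped at both days. Its log2 difference was -0.05 at day 1 (95% interval -0.25 to 0.15) and -0.04 at day 3 (-0.20 to 0.12), so a change of the size of Stat5a's at day 1 lay outside both intervals. The ratio of Stat5a to Stat5b FPKM within a library came to 2.06 ± 0.168 for siCtrl and 1.49 ± 0.111 for siPRMT1 at day 1, and to 2.61 ± 0.250 and 2.07 ± 0.0433 at day 3 (SD, n = 3). All siPRMT1 ratios lay below all siCtrl ratios of the same day, including at day 1, where siCtrl replicate 3 had 2.21 and replicates 1 and 2 had 2.099 and 1.88.

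**Figure D3:**
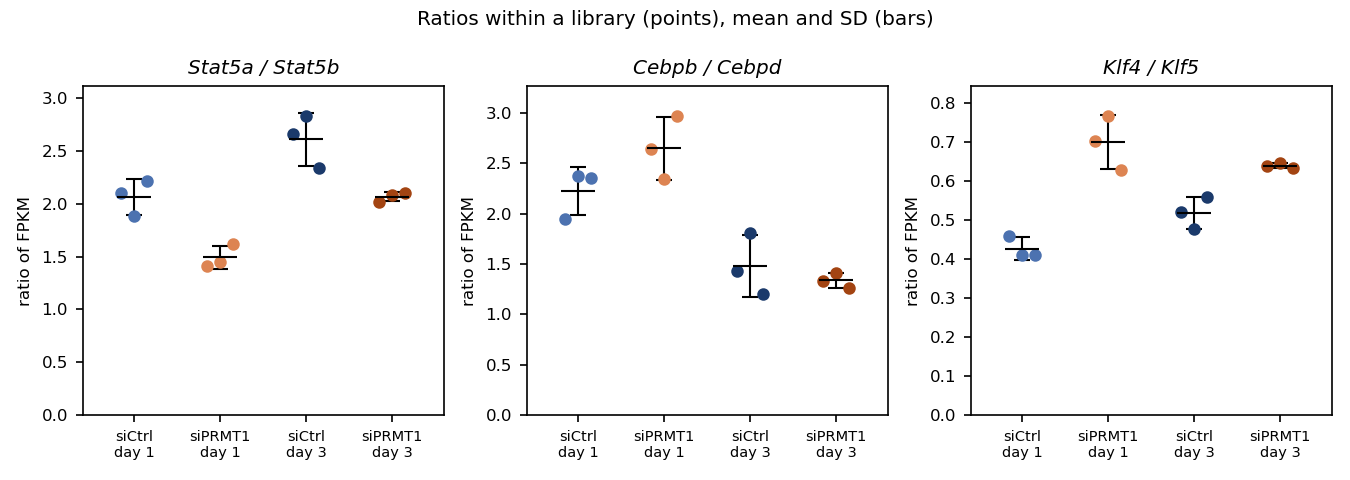
Ratios of FPKM within each library (vertical axes) for Stat5a to Stat5b, Cebpb to Cebpd and Klf4 to Klf5 in the 4 conditions, with replicates 1 to 3 from left to right and bars for the mean and SD. The siPRMT1 libraries lie below the siCtrl libraries of their day for Stat5a to Stat5b and above them for Klf4 to Klf5. The ratios were not tested.

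Around the STAT5 proteins, 5 other STAT genes were listed and 4 tested. At day 1, 1 was called higher, Stat2, a mediator of interferon signalling (log2 difference 0.64, edgeR's adjusted p = 0.00566). Summed FPKM of 8 interferon response genes moved with the knockdown too, from between 9.14 and 11.0 in siCtrl to between 25.3 and 32.9 in siPRMT1 libraries at day 1, and from between 3.41 and 4.49 to between 5.32 and 6.15 at day 3. The test took in 6 of these genes, and it called 5 higher at day 1 and 3 at day 3. Their part in the differences of Klf4 and Stat5a was not tested. Among 5 genes known to respond to STAT5 were the feedback genes Cish, Socs1, Socs2 and Socs3, which it induces. Bcl6, the other, is known mainly as repressed by it. At day 1, 1 of the 5 was called, Socs1, which was higher by 0.70 (edgeR's adjusted p = 0.0265) and is also induced by interferons. Socs2 (-0.45, adjusted p = 0.0197) and Socs3 (0.36, adjusted p = 0.0368) then passed the adjusted p but not the fold threshold. At day 3, 0 were called, and Bcl6 (-0.39, adjusted p = 0.00247) passed the adjusted p alone. Cish did not pass it at either day. Of 15 receptors and kinases upstream of the early factors, 1 was called at day 1, the growth hormone receptor gene Ghr, with 71.6 to 101 FPKM in siCtrl and 61.5 to 66.2 FPKM in siPRMT1 libraries (log2 difference -0.53, adjusted p = 0.0370), and 0 at day 3. Jak2 and Smurf2, which encodes a ubiquitin ligase, were not called at either day, and Smurf2 had log2 differences of -0.07 and -0.01.

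Cebpb (chromosome 2, 167688915 to 167690432, plus strand, 1 exon) had the highest FPKM of the 9 factors in every condition. At day 1 it stood at 71.3, 96.2 and 131 FPKM in siCtrl cells and 125, 98.6 and 169 FPKM in siPRMT1 cells. At day 3 it stood at 49.8, 70.2 and 42.4 FPKM in siCtrl cells and 37.99, 55.8 and 51.5 FPKM in siPRMT1 cells. Replicates varied widely, by a coefficient of variation of 29.9% among siCtrl and 27.1% among siPRMT1 libraries of day 1, and the groups overlapped at both days. The log2 difference at day 1 was 0.35 (95% interval -0.19 to 0.88, edgeR's adjusted p = 0.408). Without siCtrl replicate 3 it was 0.59 and called (adjusted p = 0.0195), and with the GC and length offsets on all 6 libraries it was 0.26 and not called (adjusted p = 0.161). At day 3 it was -0.16 (95% interval -0.49 to 0.17), and 0.08 without siCtrl replicate 2.

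Cebpd (chromosome 16, 15887286 to 15889545, plus strand, 1 exon), the glucocorticoid-induced partner of Cebpb, stood at 36.6, 40.5 and 55.5 FPKM in siCtrl and 47.3, 42.0 and 56.8 FPKM in siPRMT1 cells at day 1. At day 3 the values were 34.8, 38.9 and 35.2 FPKM in siCtrl and 28.5, 39.4 and 40.7 FPKM in siPRMT1 cells. Replicate 3 was the highest library of both day 1 groups, and the groups overlapped at both days. edgeR gave a log2 difference of 0.09 at day 1 (95% interval -0.27 to 0.46, adjusted p = 0.774) and -0.01 at day 3 (-0.24 to 0.22, adjusted p = 0.972). Without siCtrl replicate 3, the value at day 1 was 0.28 with an adjusted p of 0.0449, under the fold threshold, and with the GC and length offsets it was 0.12 (adjusted p = 0.491). The gene Spidr overlaps the position of Cebpd on the opposite strand, and the strand setting of the counting is not stated.

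Among 5 other genes of the C/EBP family, 4 were tested. At day 1, 1 was called higher, Ddit3, which encodes the stress factor CHOP, an inhibitor of C/EBP dimers (13.9, 14.6 and 14.8 FPKM in siCtrl and 23.2, 24.0 and 24.8 FPKM in siPRMT1 cells, log2 difference 0.69, edgeR's adjusted p = 0.00302). At the same day 1 was called lower, Cebpa (log2 difference -0.88, adjusted p = 0.0156). Its levels at day 1 were 16.2, 16.3 and 24.1 FPKM in siCtrl and 10.8, 9.78 and 11.2 FPKM in siPRMT1 cells. Replicate 3 was the high control. At day 3, 0 of the 4 were called. The 2 main targets of C/EBPβ and C/EBPδ, Pparg and Cebpa, were both called lower at day 1, Pparg at -0.52 (edgeR's adjusted p = 0.00659). At day 3 both were lower by less than the fold threshold, so 0 were called. Pparg was then at -0.30 (edgeR's adjusted p = 0.00407) and Cebpa at -0.46 (adjusted p = 0.000401). Neither Cebpb nor Cebpd was called lower at either day.

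Egr2 (chromosome 10, 67534453 to 67547493, plus strand), an immediate-early zinc finger gene also called Krox20, was the lowest of the 9. It had 25, 15 and 11 counts in siCtrl and 15, 11 and 13 counts in siPRMT1 cells at day 1, and 17, 16 and 20 against 17, 14 and 12 counts at day 3. The FPKM lay between 0.04 and 0.11 in all 12 libraries, below every library of the other 8 factors. The gene Ado, with 1272 counts over all libraries, overlaps the position of Egr2 on the opposite strand. As for Cebpd, the strand setting of the counting is not stated. At day 3 all siPRMT1 libraries (0.05 to 0.08 FPKM) lay below all siCtrl libraries (0.09 to 0.11 FPKM), and at day 1 the groups overlapped. Its log2 difference was -0.24 at day 1 (95% interval -0.89 to 0.40) and -0.60 at day 3 (-1.22 to 0.03), with edgeR's adjusted p of 0.661 and 0.180, so neither difference passed the test at this depth. Of 5 genes of the EGR family and their corepressors (Egr1, Egr3, Egr4, Nab1 and Nab2), 4 were tested and 0 were called at either day.

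Creb1 (chromosome 1, 64532315 to 64604548, plus strand), which encodes the cyclic AMP response factor CREB, stood at 7.75, 7.73 and 4.11 FPKM in siCtrl and 6.84, 7.44 and 6.86 FPKM in siPRMT1 cells at day 1. At day 3 it stood at 5.67, 4.72 and 4.53 FPKM in siCtrl and 5.0, 4.76 and 4.6 FPKM in siPRMT1 cells. The low value of siCtrl day 1 replicate 3 set the spread of its group, and the groups overlapped at both days. The log2 difference was 0.05 at day 1 (95% interval -0.44 to 0.55) and -0.06 at day 3 (-0.25 to 0.13), and edgeR's adjusted p was 0.911 and 0.679. Leaving out that library, the value at day 1 turned to -0.19 with an adjusted p of 0.0316, under the fold threshold, and with the GC and length offsets it was 0.10 (adjusted p = 0.453). Of 7 related genes and coactivators (Crem, Atf1, Crtc1, Crtc2, Crtc3, Crebbp and Ep300), all were tested and 0 were called at either day.

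Fosl2 (chromosome 5, 32136472 to 32157840, plus strand) varied little between replicates, with coefficients of variation between 2.62% and 3.998%. At day 1 it stood at 42.0, 44.2 and 42.7 FPKM in siCtrl and 50.3, 49.5 and 47.3 FPKM in siPRMT1 cells. At day 3 it stood at 13.4, 14.1 and 13.0 FPKM in siCtrl and 10.6, 10.6 and 11.1 FPKM in siPRMT1 cells. Each siPRMT1 library lay above all control libraries at day 1 and below all of them at day 3. edgeR gave a log2 difference of 0.14 at day 1 (standard error 0.0605, adjusted p = 0.201), which did not pass, and -0.34 at day 3 (standard error 0.0710, adjusted p = 0.00455), which passed the adjusted p but not the fold threshold. The interaction of siRNA and day was -0.45 (standard error 0.0872, adjusted p = 0.00402), and its adjusted p passed in each of 22 alternatives, at -0.52 to -0.40.

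Fosl1, the gene of the related AP-1 subunit Fra-1, lay higher in siPRMT1 cells at day 1, at 20.9, 20.9 and 28.7 against 10.4, 12.9 and 15.5 FPKM, and lower at day 3, at 10.6, 11.5 and 13.5 against 31.4, 35.7 and 23.3 FPKM. Its log2 difference was 0.82 at day 1 (edgeR's adjusted p = 0.0262) and -1.34 at day 3 (adjusted p = 1.28e-05), and the interaction was -2.14 (adjusted p = 9.16e-05). It was the only one of 6 other AP-1 genes (Fos, Fosb, Fosl1, Jun, Junb and Jund) that was called at either day, and the only one called in the interaction. The interaction was positive for 1 of the 6, Fos, and their median log2 interaction was -0.20.

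**Figure D4:**
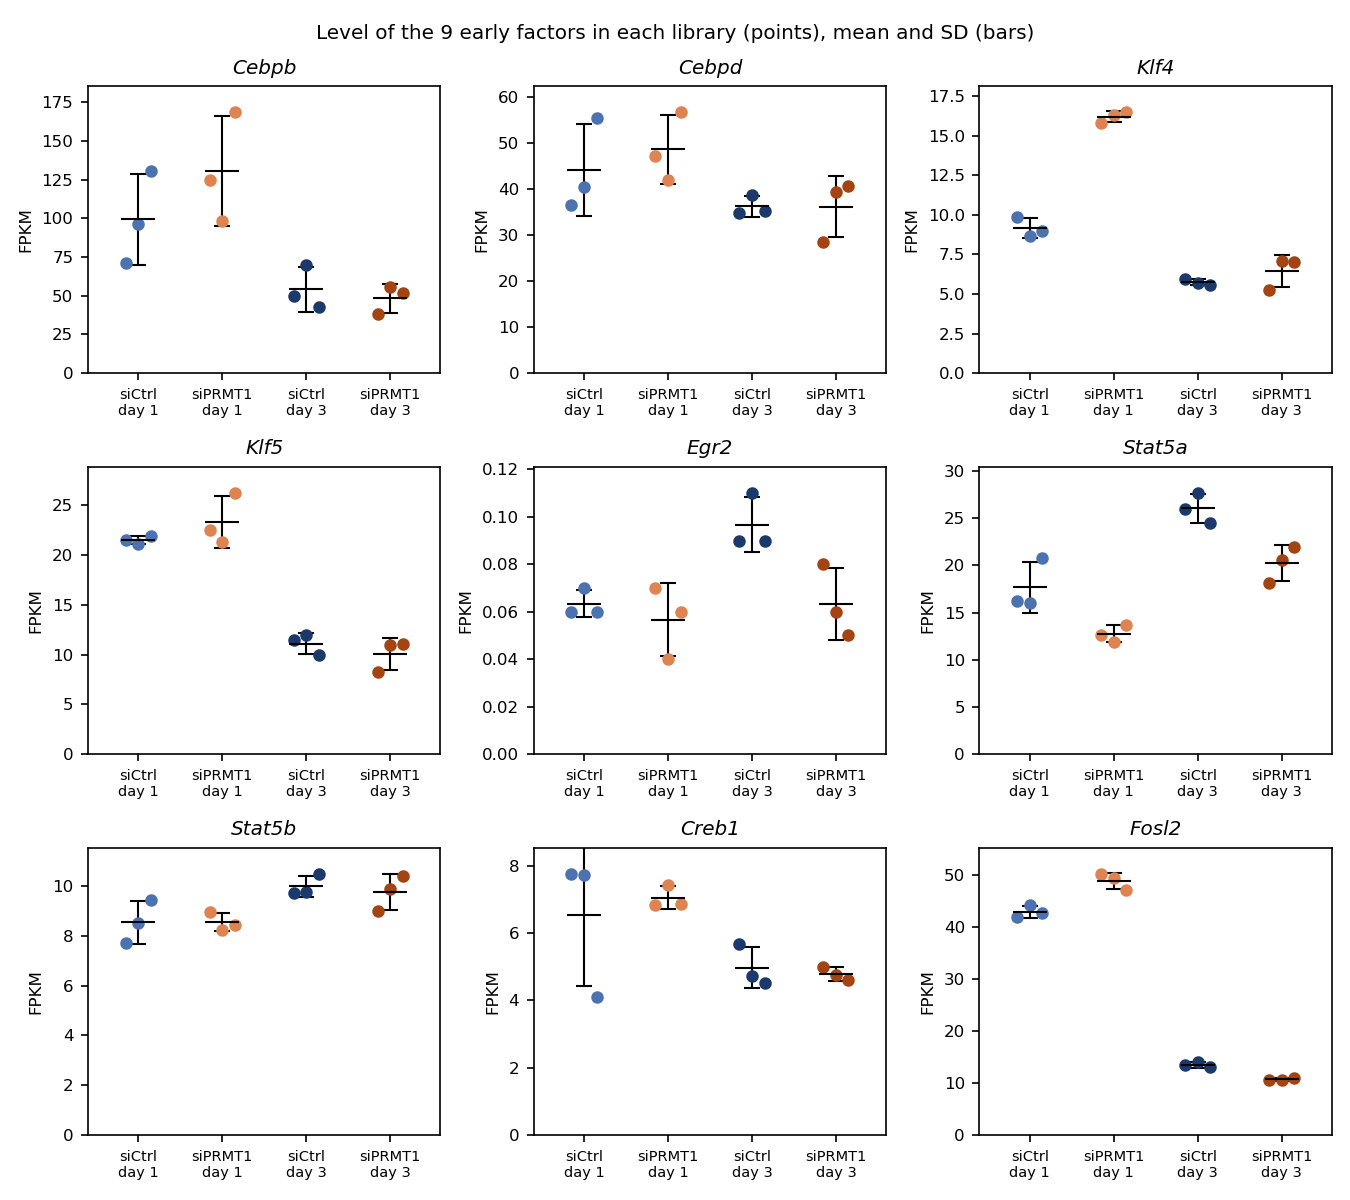
FPKM of each factor (vertical axes, each from 0) in the 12 libraries by condition, with replicates 1 to 3 from left to right as points and bars for the mean and SD. Klf4 in siPRMT1 cells at day 1 stands at 15.8 to 16.5 against 8.68 to 9.90 in siCtrl cells, and Fosl2 goes from between 42.0 and 44.2 at day 1 to between 13.0 and 14.1 at day 3 in siCtrl cells.

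The second question was how the early factors moved between day 1 and day 3. Cebpb, Klf4, Klf5 and Fosl2 were lower at day 3 in both siCtrl and siPRMT1 cells, Stat5a was the only factor called higher, and Stat5b was not called. In siCtrl cells, 4 of the 9 factors were called lower, where 20.4% of the 13829 genes tested were, and 0 higher, where 22.7% were. In siPRMT1 cells, 5 were called lower, where 17.4% of the 14224 genes tested were, and 1 higher, where 19.0% were. At an unadjusted p under 0.05, 1 factor was higher in siCtrl cells, Stat5a, and DESeq2 called 0. With the adjusted p alone, 4 factors were lower and 1 higher in siCtrl cells, where 28.7% and 30.2% of genes passed, and 6 were lower and 2 higher in siPRMT1 cells, where 31.2% and 32.2% did. Each comparison shares its libraries with the knockdown comparisons. The median log2 difference of the 9 was -0.47 in siCtrl and -0.57 in siPRMT1 cells, against -0.00 and 0.00 over all genes tested.

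Fosl2 fell most, by a log2 difference of -1.74 in siCtrl (standard error 0.0783, edgeR's adjusted p = 8.25e-08) and -2.20 in siPRMT1 cells (standard error 0.0596, adjusted p = 2.02e-12). Day 3 kept 31.4% of the day 1 mean FPKM of Fosl2 in siCtrl and 21.9% in siPRMT1 cells. Klf5 fell by 1.03 and 1.22 on the log2 scale, and Cebpb fell by 0.95 and 1.44, with adjusted p of 0.00526 for Cebpb in siCtrl cells and 2.98e-06 in siPRMT1 cells. Without siCtrl day 1 replicate 3 the value of Cebpb in siCtrl cells was -0.71 and still called (adjusted p = 0.00114), and with the GC and length offsets it was -1.17 (adjusted p = 1.83e-05). Klf4 fell by 0.75 in siCtrl and by 1.34 in siPRMT1 cells, from the different day 1 levels given above to levels that overlapped at day 3. No library of Cebpb, Klf4, Klf5 or Fosl2 at day 3 reached the lowest library of the same siRNA at day 1. The share of all genes whose days lay apart in this way was not computed. Stat5a and Stat5b lay apart upward in both siCtrl and siPRMT1 cells. Egr2 did so in siCtrl cells, and Cebpd and Creb1 lay apart downward in siPRMT1 cells.

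**Figure D5:**
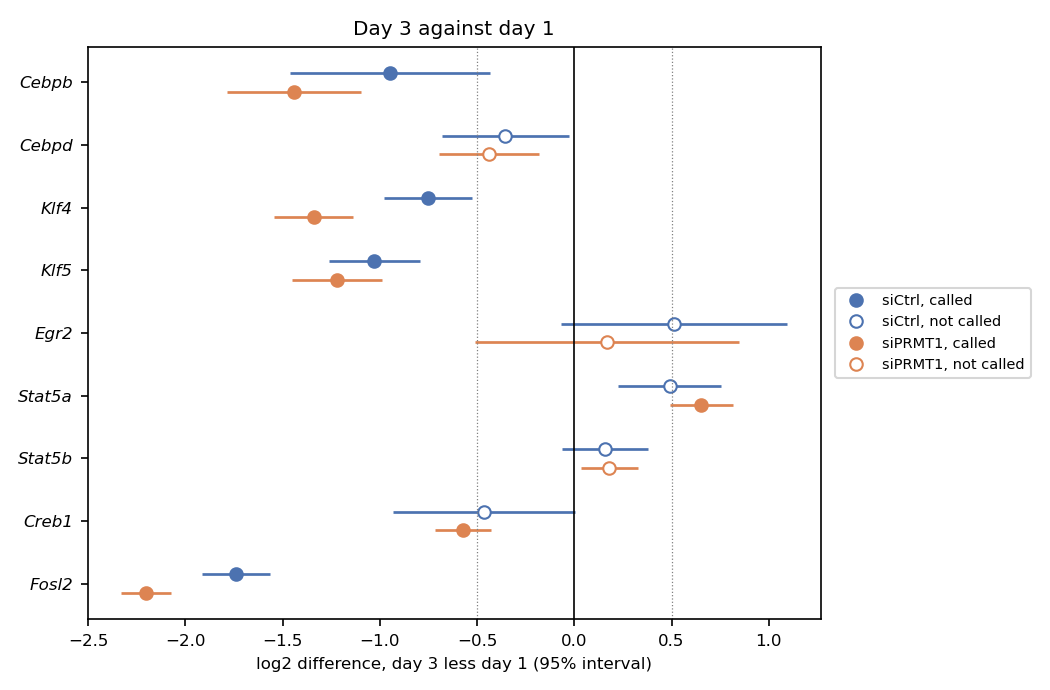
Log2 difference of day 3 to day 1 (horizontal axis) for each factor in siCtrl (blue) and siPRMT1 (orange) cells, with 95% intervals from edgeR. Filled points were called, and dotted lines mark the fold threshold of 0.5. Cebpb, Klf4, Klf5 and Fosl2 are filled on the left in both, with Fosl2 farthest at -1.74 and -2.20.

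Stat5a rose by 0.65 in siPRMT1 cells (edgeR's adjusted p = 3.96e-06) and had a log2 difference of 0.49 in siCtrl cells (adjusted p = 0.00496), just under the fold threshold. Without siCtrl day 1 replicate 3 the latter was 0.62 and called (adjusted p = 4.15e-06), and with the GC and length offsets it was 0.35. The interaction of Stat5a was 0.17 (adjusted p = 0.506), 0.31 with the offsets (adjusted p = 0.0142), and 0.0059 without siCtrl day 1 replicate 3 (adjusted p = 0.978). Stat5b had log2 differences of 0.16 and 0.18, with adjusted p of 0.193 and 0.0317.

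Creb1 fell by 0.57 in siPRMT1 cells (edgeR's adjusted p = 5.29e-06) and had a log2 difference of -0.47 in siCtrl cells (adjusted p = 0.0800). Both values moved with the correction for GC content. With the GC and length offsets the values were -0.31 in siPRMT1 cells, under the fold threshold, and 0.01 in siCtrl cells. Without siCtrl day 1 replicate 3 the latter was -0.71 and called (adjusted p = 4.20e-06). Cebpd had log2 differences of -0.35 in siCtrl (adjusted p = 0.0610) and -0.44 in siPRMT1 cells (adjusted p = 0.00579), both under the fold threshold, and was called lower in both with the offsets, at -0.52 and -0.57. Without siCtrl day 1 replicate 3 the value of Cebpd in siCtrl cells was -0.16 (adjusted p = 0.0831). Egr2 had log2 differences of 0.51 and 0.17 with adjusted p of 0.117 and 0.660, at 11 to 25 counts a library.

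The related genes moved between the days as follows. All 6 AP-1 partners were called lower in siPRMT1 cells, and 3 were in siCtrl cells, Junb (-1.89), Jun (-1.05) and Fos (-1.83), while Fosl1 was called higher there. Of the 9 other Krüppel-like genes, 2 were called higher and 3 lower in each of siCtrl and siPRMT1 cells, with Klf15 up by 5.68 and 4.32, Klf10 at -0.95 and -0.97, and Klf3 at -0.88 and -0.77. Among the other STAT genes, Stat2 (-0.93 and -1.41) and Stat3 (-0.72 and -0.80) were called lower in both. Among the genes that respond to STAT5, Cish was called higher (1.17 and 1.22), and Socs3 (-0.86 and -1.18) and Socs1 (-1.44 and -1.89) lower. Of the upstream genes, Irs1, which encodes an insulin receptor substrate, was called higher (1.52 and 1.83) and Jak2 lower (-1.21 and -1.06). Prkar1a, a regulatory subunit of protein kinase A, was lower in siCtrl cells (-0.63), and Ghr was higher in siPRMT1 cells (0.72). In the EGR family, Egr1 was called lower in siCtrl cells (-0.53) and Nab2 in siPRMT1 cells (-0.58), and of the CREB family and coactivators 0 of 7 were called in either. In the C/EBP family, Cebpa was called higher in both (1.93 and 2.36), and in siPRMT1 cells also Cebpg (0.57), while Ddit3 was lower there (-0.68). Pparg rose by 2.01 and 2.24.

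Taking the related genes of all these lists together, 58 genes that are not among the 9, 54 were tested at day 1, with 4 called higher and 3 lower in siPRMT1 cells, and 55 at day 3, with 0 higher and 2 lower. From day 1 to day 3, 10 were called higher and 13 lower in siCtrl cells, and 9 and 16 in siPRMT1 cells. In the interaction, 3 were called higher and 5 lower. For lists with 0 calls for the knockdown at day 1, the numbers at an unadjusted p under 0.05 were as follows. They were 0 Krüppel-like genes, 1 EGR, 2 CREB, 2 proliferation (both lower), 3 preadipocyte and fibroblast and 1 macrophage gene. The endothelial and muscle lists had 1 gene tested each, with 0 at such a p, and 0 epithelial genes were tested. At day 3 the numbers were 0 macrophage and 1 epithelial gene, 2 C/EBP, 0 EGR, 1 STAT and 0 CREB genes. There were also 5 upstream genes, 1 STAT5-responsive gene, 1 proliferation gene, and both Pparg and Cebpa. In the CREB list, 1 gene had such a p between the days in siCtrl cells and 6 had in siPRMT1 cells. DESeq2 called 0 genes in each of these lists as well. The median log2 difference of the related genes tested was 0.06 and -0.06 for the knockdown at day 1 and day 3.

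Signs of differentiation and of growth moved with the same comparisons. All 5 adipocyte markers were called higher at day 3 in siCtrl and in siPRMT1 cells, and 6 of 7 preadipocyte and fibroblast markers were called lower in each, as were 5 of 5 proliferation markers. Between siPRMT1 and siCtrl cells, 1 of 4 adipocyte markers tested was called lower at day 1 (Cidec, log2 difference -0.90) and 3 of 5 at day 3. Summed proliferation markers were between 493 and 599 FPKM in siCtrl and between 500 and 546 FPKM in siPRMT1 libraries at day 1. The lowest siCtrl sum was that of replicate 3, and the siCtrl median, 579 FPKM, lay above every siPRMT1 library. For the knockdown at day 1, 0 of 5 were called. Ccnb1 (-0.27, edgeR's adjusted p = 0.0411) and Cdk1 (-0.26, adjusted p = 0.0455) were lower by less than the fold threshold, and the others did not pass the adjusted p. At day 3 the sums were between 206 and 231 against between 229 and 254 FPKM, and 0 were called for the knockdown. Summed preadipocyte and fibroblast markers were between 875 and 906 FPKM in siCtrl and lower, between 814 and 827 FPKM, in siPRMT1 libraries at day 1, where 0 of 7 were called and 3 were lower at an unadjusted p under 0.05. They were between 240 and 267 FPKM in siCtrl and between 279 and 333 FPKM in siPRMT1 libraries at day 3, with Pdgfra and Ly6a called higher. Their part in the differences of the early factors was not tested.

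Ordered by mean FPKM in siCtrl cells at day 1, Cebpb (99.3 ± 29.7, SD, n = 3) was followed by Cebpd (44.2 ± 9.95), Fosl2 (43.0 ± 1.13), Klf5 (21.5 ± 0.391), Stat5a (17.7 ± 2.74), Klf4 (9.19 ± 0.634), Stat5b (8.55 ± 0.856), Creb1 (6.53 ± 2.096) and Egr2 (0.0633 ± 0.0058). Cebpd and Fosl2 did not differ beyond their spread, nor did Klf4 and Stat5b, or Stat5b and Creb1. In siCtrl cells at day 3 the order was Cebpb (54.1 ± 14.4), Cebpd (36.3 ± 2.25), Stat5a (26.1 ± 1.58), Fosl2 (13.5 ± 0.540), Klf5 (11.1 ± 1.02), Stat5b (9.997 ± 0.419), Klf4 (5.73 ± 0.189), Creb1 (4.97 ± 0.611) and Egr2 (0.0967 ± 0.0115), so Stat5a had moved above Fosl2 and Klf5. At day 3 the libraries of Klf5 and Stat5b overlapped, as did those of Klf4 and Creb1. The ratio of Cebpb to Cebpd FPKM within a library came to 2.23 ± 0.239 for siCtrl and 2.65 ± 0.313 for siPRMT1 at day 1, and to 1.48 ± 0.304 and 1.34 ± 0.0758 at day 3, with overlapping ratios between the siRNAs at both days.

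For 5 factors the condition means spanned at least 1 on the log2 scale. The genes with the most similar course to each over the 12 libraries were found among 12467 genes, as a description. The measure was the root mean square difference of centred log2 CPM (counts scaled by the library total and edgeR's TMM factor). Cebpb, with a span of 1.42, was closest to Snai1 (0.20) and Arid5a (0.21). Klf4, with a span of 1.49, was closest to Itpr2 (0.12) and Foxp1 (0.13), and Fosl2, with a span of 2.20, to Ksr1 (0.12) and Lockd (0.13). Klf5 (span 1.22) was closest to Aurkb and Spc24 (0.10 each), and Stat5a (span 1.04) to Sh2d3c (0.10) and Srebf1 (0.11). The distances for Cebpb were the largest of the 5.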

How the data were processed

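Counts per gene, deposited by the authors without normalization, and FPKM, made by the authors from those counts, the gene length and the library total (recomputed here within 0.005), were used. The submitters' processing notes name cutadapt 1.11, HISAT2 2.1.0, RSEM 1.2.6 and mm10. The tool behind the deposited counts, the strand setting and the handling of shared reads are not given in the sources used here. Each comparison was fitted on all genes with edgeR 4.0.16 (TMM, filterByExpr, quasi-likelihood), and a replicate was left out in turn. Other alternatives were DESeq2 1.42.0, limma 3.58.1 on log2 FPKM, RLE, other filters, no fold threshold, the replicate number as a block, and the GC and length offsets. Standard errors came from the log2 difference and its F statistic. The fits were tested on simulated data. GC offsets came from GENCODE transcripts (splines with 6 degrees of freedom), and covered at least 88.9% of genes tested. Named related genes are at most the 3 called genes with the smallest p of each list and comparison, beside the 9 factors, Prmt1, Pparg, Cebpa and Smurf2. A related gene that this rule would name is not reported here. The members, lists and tests were chosen with earlier results of these data known. Counting error sets a floor of 3 counts, or 0.0708 to 0.198 CPM. No 2 replicates were identical (chi-square per gene from 4.14 to 50.6).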

Additional observations from a re-analysis of the deposited data

Results flagged for a closer look

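Klf4 and Fosl2 stand out because the effect of the knockdown differed between the days by the test of the interaction itself. For Klf4 the log2 difference of siPRMT1 to siCtrl cells, taken at day 3 less day 1, was -0.58 (edgeR's adjusted p = 0.0164), from 0.77 at day 1 to 0.17 at day 3. For Fosl2 it was -0.45 (edgeR's adjusted p = 0.00402), from 0.14 at day 1 to -0.34 at day 3, with the siPRMT1 libraries above all siCtrl libraries at day 1 and below them at day 3. The difference of Fosl2 at day 1 did not pass edgeR's adjusted p (0.201), and that at day 3 passed it but not the fold threshold. Over all alternatives the adjusted p of the interaction ran from 0.00228 to 0.0435 for Klf4 and from 1.77e-05 to 0.0184 for Fosl2. Groups of 3 libraries were not tested for outlying samples.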

How the results depend on the processing

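Of 800 log2 differences of the 9 factors recomputed under the alternatives, 738 kept their direction and their side of the threshold, 13 fell short of it, 19 newly passed it and 30 changed sign, each of them for a factor that was not called in that comparison. Klf4 at day 1 and the interactions of Klf4 and Fosl2 kept their calls under every alternative run. With the replicate block, the factors called higher and lower were 1 and 1 at day 1, 0 and 0 at day 3, 0 and 4 between the days in siCtrl cells, 1 and 5 in siPRMT1 cells, and 0 and 2 in the interaction, so no count moved. Same-numbered libraries deviated together in some pairs and not in others (r from -0.239 to 0.318, a description). Between siCtrl and siPRMT1, r for replicates 1 to 3 was -0.053, 0.228 and 0.309 at day 1. At day 3 it was 0.305, 0.142 and -0.087. The block gave 296 higher and 240 lower genes at day 1. With limma on log2(FPKM + 1), log2(FPKM + 0.1) or without a filter, 0 factors were called lower at day 1 and 1 higher between the days in siCtrl cells. The latter was also 1 with at least 10 counts in every library and without a fold threshold. Without the fold threshold, 2 factors were lower at day 3 and 2 higher between the days in siPRMT1 cells. GC and length offsets gave 1 factor with a higher interaction (Stat5a) and 3 with a lower one, Creb1 added, with the replicate block too, and no filter on low counts gave 3 lower, Cebpb added. Leaving out single libraries, the factors called at day 1 ran from 1 to 2 higher (2 without siCtrl replicate 3) and from 0 to 1 lower, and from 0 to 1 were higher between the days in siCtrl cells.

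Signs changed as follows, and the cause was not tested. At day 1, leaving out 1 library moved Cebpd from -0.036 to 0.28, Klf5 from -0.032 to 0.10, Stat5b from -0.12 to 0.022 and Creb1 from -0.19 to 0.20, and limma gave Stat5b 0.0026, 0.0033 and 0.0026. At day 3, the ranges were -0.31 to 0.078 for Cebpb, -0.11 to 0.13 for Cebpd, -0.10 to 0.0076 for Stat5b and -0.13 to 0.028 for Creb1. Cebpd at day 3 was 0.010 without a filter, 0.045 with the offsets and 0.031 with the offsets and the replicate block. Between the days, Creb1 in siCtrl cells was 0.013 with the offsets and 0.024 with the block added, and Egr2 in siPRMT1 cells ran from -0.054 to 0.33. In the interaction, Cebpd ran from -0.30 to 0.065, Stat5b from -0.080 to 0.10 and Creb1 from -0.26 to 0.11, and limma gave Stat5b -0.035, -0.039 and -0.035.

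Over all genes, 267 were higher and 220 lower at day 1, against 441 and 599 without the fold threshold and 166 and 80 with limma, and from 61 to 504 and 62 to 369 with 1 library left out. At day 3, 399 and 534 became 1058 and 1255 without the fold threshold and 144 and 244 with limma. Between the days, limma gave 2312 and 1652 in siCtrl cells (3141 and 2828 with edgeR) and 1657 and 1487 in siPRMT1 cells (2705 and 2481), where no fold threshold gave 4583 and 4431. In the interaction, 1123 and 676 became 1734 and 1227 with the offsets and 750 and 1013 with limma. Depth limited Egr2, with 11 to 25 counts a library, to which DESeq2 gave no adjusted p at day 1 or in the interaction.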
